A study of Mus musculus with 6 samples.

Results

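The cytosolic heat shock proteins are chaperones that bind unfolded proteins and help them to fold, stay soluble or be degraded. They were examined in 3T3-L1 adipocytes made to express uncoupling protein 1 (UCP1), the carrier of brown fat mitochondria that dissipates the proton gradient as heat. The set held 10 genes, chosen because UCP1 releases energy as heat. They were Hspa1a, Hspa1b, Hspa8, Hsp90aa1, Hsp90ab1, Dnajb1, Hsph1, Bag3, Hspb1 and Hsf1, and a probe was taken when the platform annotation gave it exactly 1 gene symbol equal to one of these. Of the 10 genes 8 had such a probe, 1 each, among 36227 probes and 18069 named genes on the array. Hsp90ab1 and Hsf1 had none and were not analysed here, and 1 further probe that shares the symbols of Hspa8 and another gene was left out by the rule. All 8 probes had a value on all 6 arrays, and no filter on low values was applied to them.

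3T3-L1 is a mouse preadipocyte line that fills with lipid and takes on adipocyte features under an adipogenic mixture. Total RNA from adipocytes 10 days after differentiation was labelled with biotin and hybridised to one-colour CodeLink mouse whole genome arrays, 3 from cells expressing UCP1 and 3 from cells carrying the Tet-off plasmid alone (control). The labels do not say whether the UCP1 cells are 1 clone, what drives the transgene, or whether replicate arrays stand for separate cultures, and the p-values therefore reflect a spread among arrays that may be technical. Intensities are on a linear scale with each array's median between 1.04 and 1.05, so they are relative to the other probes of an array and not amounts of RNA per cell.

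In cells under heat or other stress, the transcription factor HSF1 is released from chaperones, forms trimers and binds heat shock elements in promoters, short repeats of nGAAn in alternating orientation. Its targets include the inducible Hsp70 genes Hspa1a and Hspa1b, the J protein gene Dnajb1, Hsph1, Bag3, Hspb1 and Hsp90aa1, while Hspa8 encodes the Hsp70 that cells make without stress. J proteins deliver clients to Hsp70 and start its ATP cycle, exchange factors end it, Hsp90 finishes the folding of kinases and receptors, and small heat shock proteins hold unfolded clients without ATP.

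The promoters are shown for both genes that fell (Hspb1 and Dnajb1), for the gene with a match to the 3-unit heat shock element in its window (Hsph1) and for the pair of nearly identical Hsp70 genes. Each sequence is the RefSeq window of 250 bases before to 50 bases after the start of the gene, on the gene's own strand, in GRCm38.p6. Capitals mark every match to 2 alternating units spaced by 2 bases, GAANNTTC or TTCNNGAA, or to 3 units, GAANNTTCNNGAA on either strand, with overlapping matches joined. A 2-unit pattern reads the same on both strands and is also part of every 3-unit match.
Hspb1, chr5:135887669-135887968, plus strand: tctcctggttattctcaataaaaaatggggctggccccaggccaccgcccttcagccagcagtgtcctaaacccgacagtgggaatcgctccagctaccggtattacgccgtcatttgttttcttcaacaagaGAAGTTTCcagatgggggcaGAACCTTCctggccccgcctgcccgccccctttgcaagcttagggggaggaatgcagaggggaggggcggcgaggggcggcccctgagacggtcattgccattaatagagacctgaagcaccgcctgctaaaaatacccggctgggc
Dnajb1, chr8:83607925-83608224, plus strand: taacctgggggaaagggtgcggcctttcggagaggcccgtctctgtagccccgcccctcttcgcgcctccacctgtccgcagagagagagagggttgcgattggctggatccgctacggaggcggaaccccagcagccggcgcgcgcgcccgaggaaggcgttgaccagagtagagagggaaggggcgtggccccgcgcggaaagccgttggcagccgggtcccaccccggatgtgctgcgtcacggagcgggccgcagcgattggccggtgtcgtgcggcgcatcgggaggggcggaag
Hsph1, chr5:149636287-149636586, minus strand: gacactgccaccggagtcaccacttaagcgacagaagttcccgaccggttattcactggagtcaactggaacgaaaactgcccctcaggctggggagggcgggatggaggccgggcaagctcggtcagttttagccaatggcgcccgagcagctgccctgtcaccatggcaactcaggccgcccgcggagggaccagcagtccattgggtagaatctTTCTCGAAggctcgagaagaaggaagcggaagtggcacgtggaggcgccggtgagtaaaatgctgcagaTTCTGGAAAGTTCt
Hspa1a, chr17:34972107-34972406, minus strand: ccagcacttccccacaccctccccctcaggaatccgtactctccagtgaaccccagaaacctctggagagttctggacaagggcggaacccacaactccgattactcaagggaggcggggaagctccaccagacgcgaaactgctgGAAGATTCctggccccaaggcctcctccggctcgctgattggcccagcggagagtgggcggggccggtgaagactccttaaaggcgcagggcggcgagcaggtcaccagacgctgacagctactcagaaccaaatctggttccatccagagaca
Hspa1b, chr17:34959189-34959488, minus strand: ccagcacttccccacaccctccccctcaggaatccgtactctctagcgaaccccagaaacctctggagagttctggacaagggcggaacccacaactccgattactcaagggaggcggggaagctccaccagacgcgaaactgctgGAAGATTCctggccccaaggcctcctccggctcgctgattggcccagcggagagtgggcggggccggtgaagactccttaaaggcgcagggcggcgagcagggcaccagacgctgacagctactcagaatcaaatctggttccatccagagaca

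Of the 10 genes 6 had a window in the RefSeq table, with Dnajb1 and Hsph1 holding a pair of windows each. Hspa8, Hsp90aa1, Hsp90ab1 and Hsf1 had none. A 2-unit match lay in the windows of 5 of the 6 genes, 2 of which are the nearly identical Hspa1a and Hspa1b. Counted by window and not by gene, 15.1% of all 32851 windows in the table held such a match. Hspb1 held 2 matches, at 117 to 110 and at 97 to 90 bases before the start. The 3-unit match of Hsph1, TTCTGGAAAGTTC, lay 36 to 48 bases past the start in the window printed, and 0.603% of all windows held such a match. Bag3 held 1 2-unit match, 42 to 49 bases past the start. Neither window of Dnajb1 held these letters. The windows of Hspa1a and Hspa1b were identical at 296 of 300 aligned positions (98.7%), with the same 2-unit match 104 to 97 bases before the start in both. A match is a run of letters and not a measured binding site, and imperfect units were not searched.

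The forced gene was higher on the arrays labelled UCP1. The Ucp1 probe read 2.34, 2.02 and 1.54 on the UCP1 arrays, against 0.222, 0.232 and 0.278 on the control arrays, a log2 difference of 3.00 ± 0.234 (SE; limma, adjusted p = 0.00013). Over the 18032 probes in the brighter part of the array (mean level not under the median) log2 intensities correlated at 0.985 to 0.992 among UCP1 arrays, at 0.993 to 0.995 among control arrays and at 0.976 to 0.988 between groups. The 99th percentile of intensity was 185 to 225 on UCP1 arrays and 255 to 279 on control arrays. Of 7 adipocyte markers 5 were measured, with a summed intensity of 2276 to 3212 on UCP1 arrays and 2846 to 3255 on control arrays, and none was called. The 4 preadipocyte or fibroblast markers summed to 148 to 187 on UCP1 arrays and 116 to 141 on control arrays. Of these, 2 were called higher, Pdgfra and Thy1 (limma, adjusted p = 0.0484 and 0.0319), with 1.13% of all genes called higher at 1 probe each. Dlk1 and Col1a1 were not called, at log2 differences of 0.34 and -0.21, so Col1a1 lay in the other direction. Macrophage markers, 2 of 4 measured, summed to at most 0.332 on UCP1 arrays and 0.463 on control arrays, and the 3 endothelial markers to at most 1.14 on UCP1 arrays and 0.754 on control arrays. The part of these differences in the results was not tested.

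No heat shock gene of the set rose in UCP1 adipocytes and 2 of 8 fell. Hspb1, the small heat shock protein, was at about 0.483 times its control level, and Dnajb1, the main stress-inducible J protein, at 0.714 times. Hsph1 and Bag3, which encode nucleotide exchange factors of Hsp70, read lower on 2 of 3 UCP1 arrays than on any control array but did not pass the threshold. The bright probes of the inducible Hsp70 gene Hspa1b and of Hsp90aa1 differed by -0.19 each on the log2 scale. In such bulk samples, fewer cells expressing a gene and less RNA per cell cannot be told apart. A probe was called at an adjusted p under 0.05 (limma with an intensity trend, two-sided, Benjamini-Hochberg over 36116 tested probes). Of all tested probes 2.03% were called lower and 0.800% higher, and of all genes, at 1 probe each, 2.92% and 1.13%. So 2 of 8 lower was above either background share, on a small number of genes. The UCP1 arrays lay wholly below the control arrays for the same 2 of the 8 genes, against 14.0% of all tested probes, and wholly above them for 0 of 8, against 7.88%. An unadjusted p under 0.05 with a lower level was found for 3 of 8, Hsph1 being the third. The share was 11.8% of all tested probes and 15.1% of all genes at 1 probe each. Both calls were lost without UCP1 array 3 and without control array 1, where no member passed and 2 had an unadjusted p under 0.05 in each case.

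**Figure D1:**
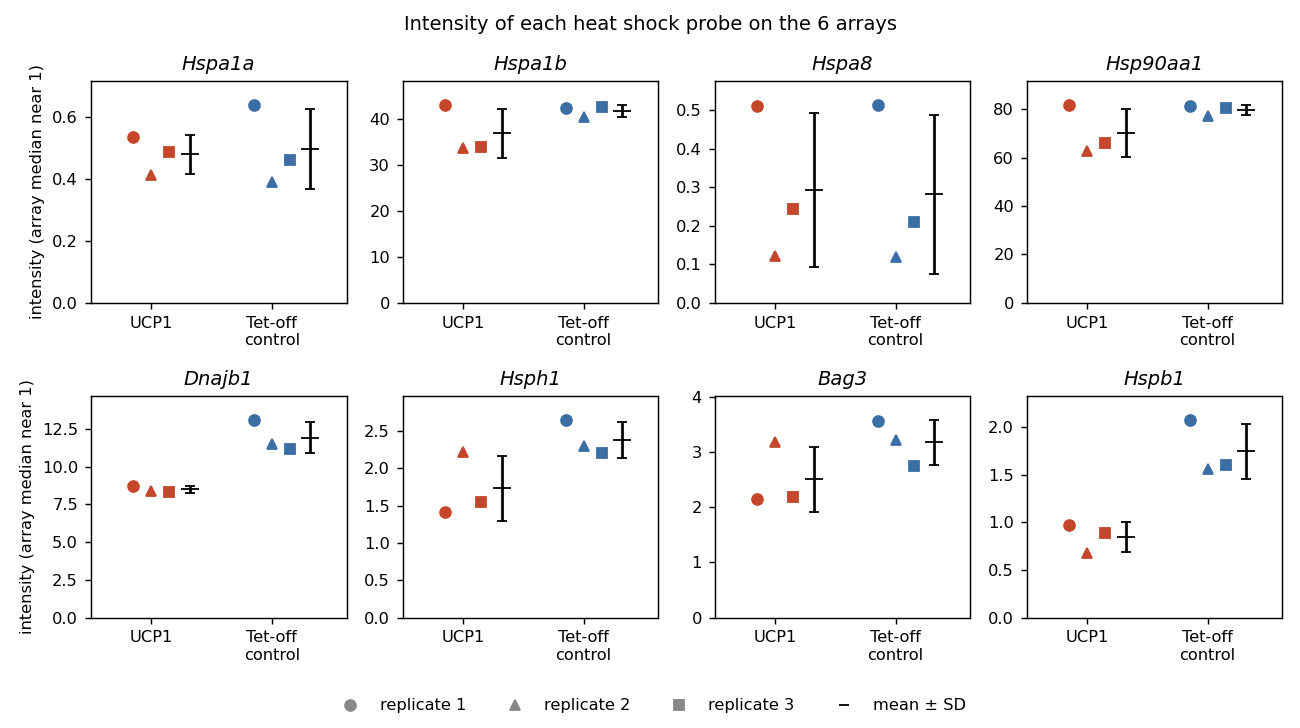
Intensity (linear scale, array median near 1) of the 8 heat shock probes on each of the 3 UCP1 arrays (red) and 3 Tet-off control arrays (blue), with black bars for the mean and SD. For Hspb1 and Dnajb1 every UCP1 array lies below every control array, and the groups overlap for the other 6 genes.

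Hspb1 encodes the small heat shock protein known in rodents as Hsp25, which forms large oligomers that hold unfolded proteins and bind actin. Its probe read 0.975, 0.675 and 0.888 on the UCP1 arrays, against 2.08, 1.56 and 1.60 on the control arrays. All 3 UCP1 values lay under the array median and all 3 control values above it: the probe stood above 41.8% to 48.6% of the probes of each UCP1 array and above 57.5% to 61.8% of those of each control array. The means were 0.846 ± 0.154 in UCP1 and 1.75 ± 0.289 in controls (SD, n = 3 each). Hspb1 fell by 1.05 on the log2 scale (SE 0.196; limma, adjusted p = 0.0183), a 2.07-fold difference. It was the largest difference in the set, and 3.40% of all tested probes had a lower one. The call was lost without control array 1 (-0.92, adjusted p = 0.0826) and without UCP1 array 3 (-1.09, adjusted p = 0.095), and the size of the fall ranged from 0.90 to 1.16 over the 6 fits that leave out 1 array. Without the intensity trend the adjusted p was 0.223.

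Dnajb1 encodes the J protein, also called Hsp40, that partners the inducible Hsp70. It read 8.74, 8.40 and 8.31 on the UCP1 arrays, against 13.1, 11.5 and 11.2 on the control arrays. The UCP1 values were close together, at 8.48 ± 0.228, and the controls averaged 11.9 ± 1.04 (SD, n = 3 each), so the groups were well apart. Dnajb1 fell by 0.49 on the log2 scale (SE 0.110; limma, adjusted p = 0.0396), a 1.40-fold difference. The call was near the threshold. It was lost after quantile normalization (-0.37, adjusted p = 0.0515), without the intensity trend (0.267) and with the replicate number as a block (0.0575). It was also lost without UCP1 array 3 (0.183) and without control array 1 (0.174), 2 (0.108) or 3 (0.0728).

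Hsph1 and Bag3 had the same order of arrays within the UCP1 group, with array 2 near the controls. Hsph1, the Hsp110 that exchanges nucleotide on Hsp70 and helps to dissolve aggregates, read 1.41, 2.22 and 1.55 on the UCP1 arrays, against 2.65, 2.29 and 2.20 on the control arrays. Arrays 1 and 3 of UCP1 were below every control and array 2 lay between the lower control values. The log2 difference of Hsph1 was -0.48 ± 0.180 (SE), with a 95% interval of -0.88 to -0.09 (limma, unadjusted p = 0.0197, adjusted p = 0.182). Without UCP1 array 2 it was -0.68 and passed (adjusted p = 0.0291). With any other array left out it did not pass (adjusted p = 0.247 to 0.473). Leaving out UCP1 array 2 also raised the calls over all tested probes, from 1021 to 1894. Bag3, a cochaperone that links Hsp70 to small heat shock proteins and to autophagy, read 2.15, 3.18 and 2.19 on the UCP1 arrays, against 3.56, 3.22 and 2.75 on the control arrays. Its log2 difference was -0.36 ± 0.172 (SE), with a 95% interval of -0.74 to 0.02 (limma, adjusted p = 0.318). UCP1 array 2 was within the controls here too. Without that array the value was -0.54 and still did not pass (adjusted p = 0.0633).

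The Hsp70 genes gave no call. Hspa1b, an inducible Hsp70, was bright, at 43.1, 33.7 and 34.0 on the UCP1 arrays, against 42.4, 40.4 and 42.5 on the control arrays. UCP1 array 1 was the highest of the 6 and arrays 2 and 3 the lowest. The log2 difference of Hspa1b was -0.19 ± 0.130 (SE), with a 95% interval of -0.47 to 0.10 (limma, adjusted p = 0.523), and it was -0.01 after quantile normalization. By rank the probe stood above 92.1% to 92.5% of the probes of each UCP1 array and above 92.2% to 92.5% of those of each control array. Hspa1a, its near-identical neighbour on chromosome 17, had a dim probe, at 0.535, 0.412 and 0.487 on the UCP1 arrays, against 0.638, 0.390 and 0.460 on the control arrays. The groups overlapped, and the log2 difference was -0.03 ± 0.284 (SE), with a 95% interval of -0.65 to 0.59. The genes are near-identical copies, and the probe sequences were not used here, so how far each probe tells them apart is uncertain.

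Hspa8, the constitutive Hsp70 (Hsc70), is an abundant protein in most cells, but its single-symbol probe was dim. It read 0.511, 0.121 and 0.244 on the UCP1 arrays, against 0.514, 0.119 and 0.211 on the control arrays. On UCP1 array 2 it stood above 4.58% of the probes, and on the lowest control array above 4.96%. The spread within each group was wide, and arrays of the same number read nearly alike in both groups. The log2 difference was 0.08 ± 0.649 (SE), with a 95% interval of -1.34 to 1.49. That interval is wide, so this probe leaves the size and direction of any change undetermined. The probe that carries 2 symbols, left out by the rule, was bright, at 388, 311 and 273 on the UCP1 arrays, against 394, 368 and 426 on the control arrays, and cannot be assigned to either gene.

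Hsp90aa1, the stress-inducible Hsp90, was the brightest probe of the set. It read 81.5, 62.8 and 66.1 on the UCP1 arrays, against 81.4, 77.3 and 80.3 on the control arrays. As for Hspa1b, UCP1 array 1 was at the control level and arrays 2 and 3 were below it. The log2 difference was -0.19 ± 0.141 (SE), with a 95% interval of -0.50 to 0.11 (limma, adjusted p = 0.54). It turned to 0.04 after quantile normalization (adjusted p = 0.829).

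The bright probes of an array as a whole were lower in UCP1. When the tested probes were cut into 10 equal parts by mean level (decile 1 the dimmest), Hspa1b and Hsp90aa1 lay in decile 10, where the median log2 difference was -0.19, the same as the differences of these genes. In decile 6, which holds Hspb1, the median was 0.00 and 2.19% of probes were called. In decile 7, which holds Hsph1 and Bag3, it was -0.03, and in decile 9, which holds Dnajb1, it was -0.12 with 7.37% of probes called. Over all tested probes the median was -0.06 and 56.9% lay below 0, and over all genes at 1 probe each -0.08 and 60.1%. Of the 8 heat shock genes 7 lay below 0, with a median of -0.28. Quantile normalization, which makes the intensity distributions of the arrays equal, left 6 of the 8 below 0. The median of the 8 was then -0.18, against 0.02 over all tested probes. There Hspb1 fell by 1.03 and was the 1 member called, with 1.23% of all tested probes called lower and 1.57% higher, while Hsph1 was at -0.44 and Bag3 at -0.29. That scaling also moved the balance of calls over the array, to 567 higher and 446 lower, against 289 higher and 732 lower in the deposited scaling.

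**Figure D2:**
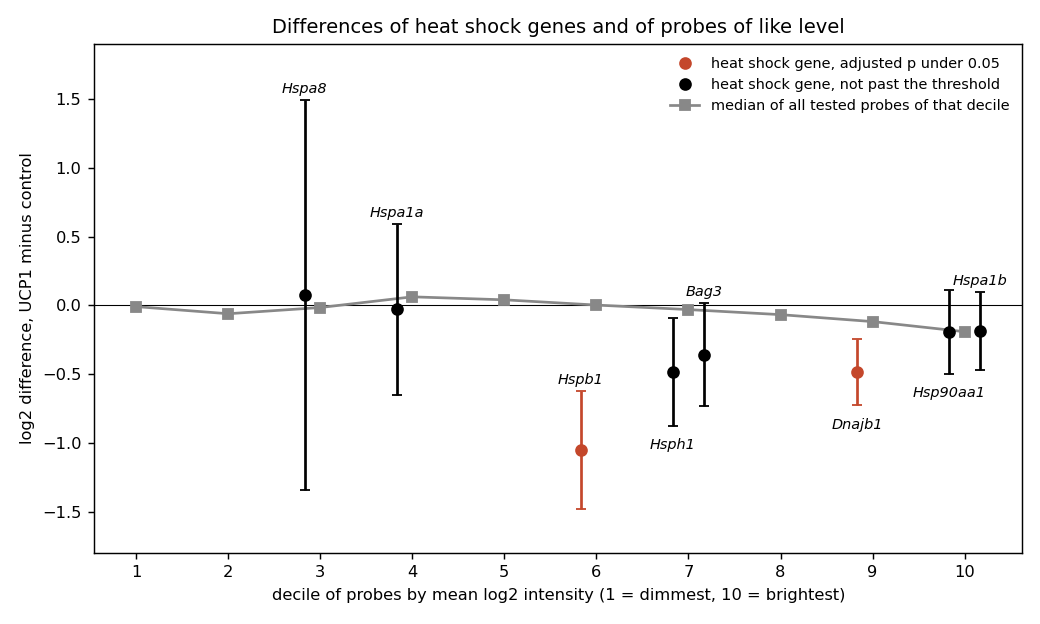
Log2 difference (UCP1 minus control) of each heat shock gene with its 95% interval, placed by the decile of tested probes in which its mean log2 intensity falls. Grey squares are the median of all tested probes of each decile. Hspa1b and Hsp90aa1 lie at the median of decile 10, the brightest (-0.19). The intervals of Hspb1, Dnajb1 and Hsph1, the last not called, lie below the medians of their deciles.

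**Figure D3:**
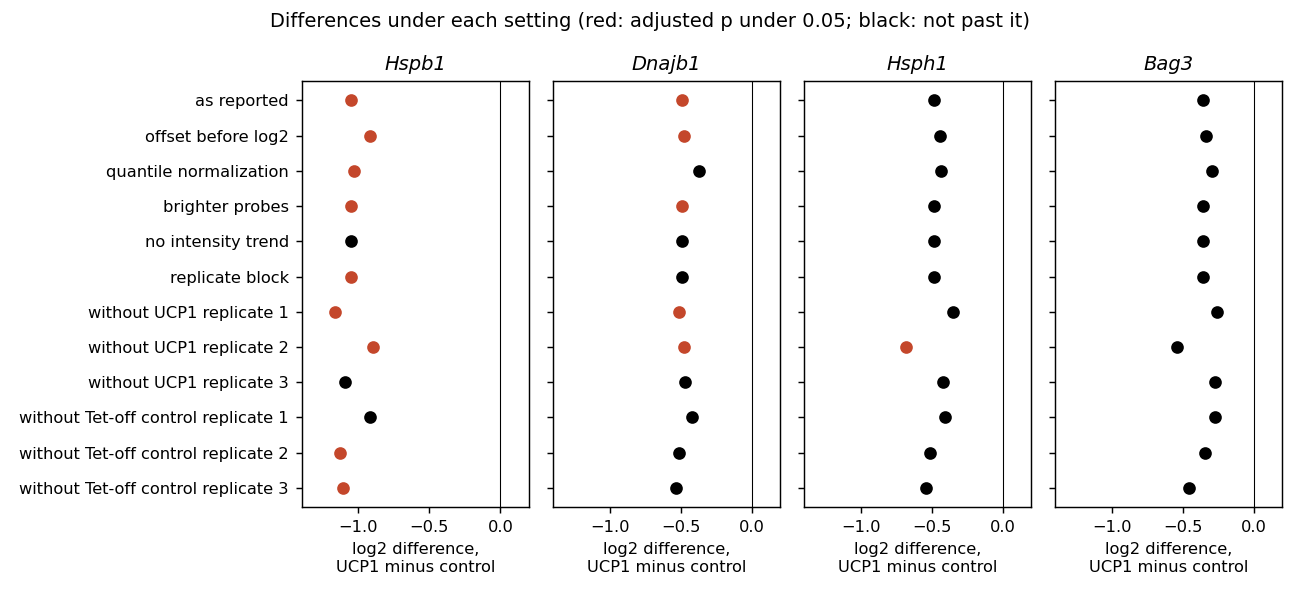
Log2 difference (UCP1 minus control) of Hspb1, Dnajb1, Hsph1 and Bag3 as reported and under each alternative setting, red where the adjusted p was under 0.05. All points lie below 0. Hspb1 passed in the reported fit and in 8 of 11 alternatives, and Dnajb1 in 4 of 11.

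Other genes of the cytosolic chaperone network were also mostly lower by small amounts. Of 73 genes on 6 lists 68 were measured, each by its brightest probe, and 5 were called lower and 1 higher. Among all 18014 genes taken this way 2.92% were called lower and 1.13% higher. Below 0 lay 57 of the 68 (83.8%), against 60.1% of all genes, with a median of -0.20, against -0.08. Quantile normalization left 43 of the 68 below 0 (63.2%), against 49.0% of all genes, and their median was -0.08, against 0.01 over all genes. Dnajc5 and Hspb6 were then called lower and Hsf4 and Dnajb4 higher, with 309 of the 18014 genes called lower and 409 higher. Many of these probes were bright, and bright probes as a whole were lower. In deciles 8, 9 and 10 of all tested probes the median was -0.07, -0.12 and -0.19. In these deciles 7.78%, 7.37% and 3.16% of probes were called, in either direction. The list genes were not compared with probes of like level, and none of these counts was tested as a group.

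Among small heat shock proteins besides Hspb1, 1 of 8 fell. For this list and the J proteins the share of all genes called lower, at 1 probe each, was 2.92%. Hspb6, also called Hsp20, an actin-associated protein of muscle, read 12.8, 13.2 and 10.6 on the UCP1 arrays, against 19.1, 17.4 and 24.1 on the control arrays. All UCP1 values were below all control values. Hspb6 fell by 0.72 (SE 0.142; limma, adjusted p = 0.0231), a call lost without UCP1 array 3 (0.149), control array 1 (0.0637) or control array 3 (0.0708). Of 14 other J proteins Dnajc5, the cysteine string protein of secretory vesicles, was the 1 that fell. It read 12.3, 12.4 and 11.1 on the UCP1 arrays, against 19.6, 17.9 and 16.6 on the control arrays. The groups were apart, with a fall of 0.60 (adjusted p = 0.02) that was lost without UCP1 array 3 (0.128), control array 1 (0.1) or control array 2 (0.0766). Its 2 dimmer probes were at -0.28 and -0.25 and did not pass.

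Of 22 measured cochaperones of Hsp70 and Hsp90, 3 fell and none rose, while 2.92% of all genes were called lower and 1.13% higher. Stub1, also called CHIP, the ubiquitin ligase that marks Hsp70 clients for degradation, read 17.3, 18.4 and 17.9 on the UCP1 arrays, against 30.9, 26.5 and 23.9 on the control arrays. Stub1 fell by 0.59 (limma, adjusted p = 0.0271), a call lost without UCP1 array 3 (0.132), control array 1 (0.127) or control array 2 (0.0915). Bag4, a nucleotide exchange factor of Hsp70, was tight on the UCP1 arrays, at 9.11, 9.09 and 8.91, against 13.1, 12.9 and 12.0 on the control arrays. Bag4 fell by 0.48 (adjusted p = 0.032), a call lost without UCP1 array 3 (0.157) or control array 1 (0.133), 2 (0.127) or 3 (0.068). Fkbp5, a glucocorticoid-induced immunophilin that binds Hsp90, read 1.28, 1.29 and 1.50 on the UCP1 arrays, against 2.78, 2.16 and 1.87 on the control arrays. Fkbp5 fell by 0.73 (adjusted p = 0.0473), and of the 6 fits that leave out 1 array it passed only without control array 3 (0.0455). Without the others its adjusted p was 0.0584 to 0.184. Quantile normalization also ended all 3 calls, with adjusted p at 0.0758 for Stub1, 0.0605 for Bag4 and 0.062 for Fkbp5. The replicate number as a block ended those of Bag4 (0.0558) and Fkbp5 (0.073).

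Hsf4, a heat shock factor known mainly from the lens, was the 1 gene of these lists that rose, and the 1 called among 4 measured factors and regulators. The share of all genes called higher, at 1 probe each, was 1.13%. Hsf4 read 2.02, 2.18 and 1.43 on the UCP1 arrays, against 1.02, 0.977 and 0.772 on the control arrays. The groups did not overlap, and Hsf4 rose by 1.01 ± 0.199 on the log2 scale (SE; limma, adjusted p = 0.0222), or 2.02-fold. The call was lost without control array 3 (adjusted p = 0.0602) and without the intensity trend (0.237). The other 3 were between -0.23 and -0.12.

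None of the 7 other Hsp70 and Hsp110 genes or of the 13 measured subunits of the cytosolic chaperonin TRiC and of prefoldin passed (limma), where 2 and 6 had an unadjusted p under 0.05, all lower. Of all genes taken this way 15.1% had such a p with a lower level. Hspa14, a ribosome-associated Hsp70, had the smallest p of its list, at -0.43 (adjusted p = 0.0784). With 1 array left out it passed only without UCP1 array 2 (0.0328). Hspa2, an Hsp70 best known from the testis, was at -0.25 (adjusted p = 0.28). In TRiC, Tcp1 was at -0.38 (adjusted p = 0.0774) and Cct7 at -0.52 (adjusted p = 0.0807). With 1 array left out, Tcp1 passed only without UCP1 array 1 (0.0421) and Cct7 only without UCP1 array 2 (0.0314).

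**Figure D4:**
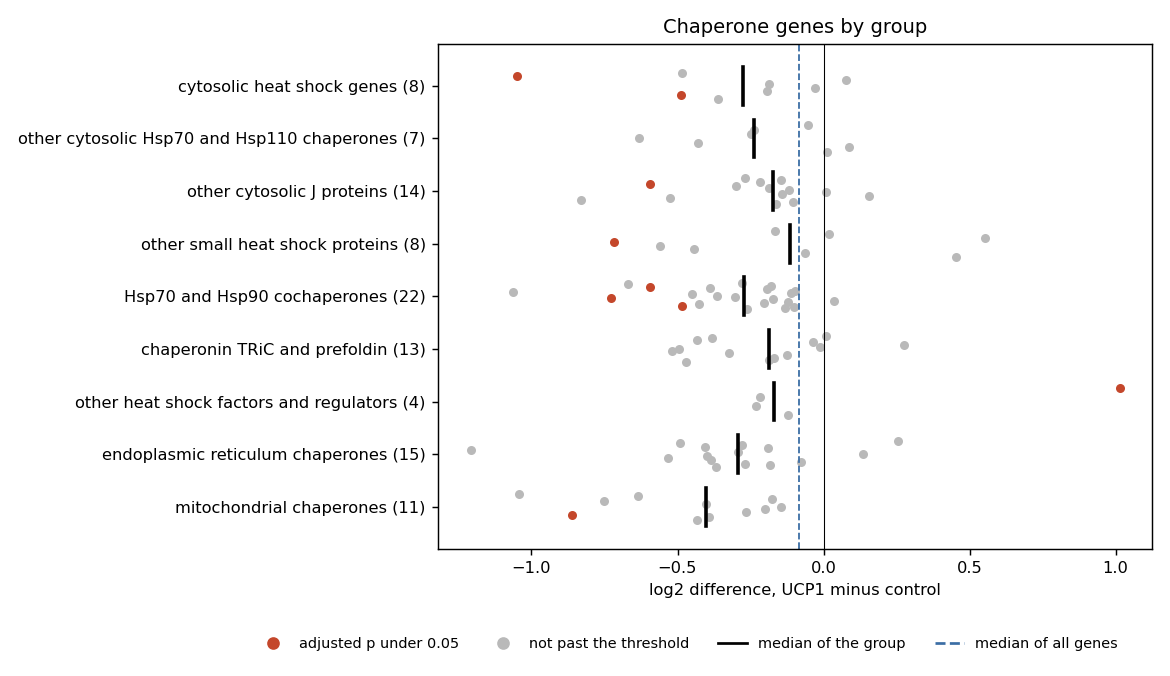
Log2 difference (UCP1 minus control) of each measured chaperone gene, with the cytosolic heat shock genes on top and 8 further groups below. The number measured stands in brackets, black bars are group medians, the dashed line is the median of all genes (-0.08) and red points passed an adjusted p of 0.05. Of the red points, Hsf4 alone lies above 0.

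Chaperones of the other compartments were set beside these genes for comparison only, and differences between compartments were not tested. Of all genes, at 1 probe each, 2.92% were called lower and 15.1% had an unadjusted p under 0.05 with a lower level (limma). In the endoplasmic reticulum 0 of 15 measured genes passed (limma, 6 with an unadjusted p under 0.05, all lower), with a median of -0.29. Of these genes 13 lay below 0, and 12 after quantile normalization, where the median was -0.12. Hspa5, the Hsp70 of that compartment known as BiP, read 76.1, 65.9 and 66.5 on the UCP1 arrays, against 90.5, 72.8 and 93.0 on the control arrays, and its log2 difference was -0.29 ± 0.145 (SE; adjusted p = 0.341). Hsp90b1, its Hsp90, was at 0.13 ± 0.186 (SE), and at -0.02 without UCP1 array 1. Sdf2l1 was at -0.49 (adjusted p = 0.0584) and the J protein Dnajc10 at -0.53 (adjusted p = 0.126). With 1 array left out, Sdf2l1 passed only without UCP1 array 1 (0.0275) and Dnajc10 only without UCP1 array 2 (0.00858). In mitochondria 1 of 11 measured genes fell. All 11 lay below 0 in the deposited scaling and after quantile normalization, with medians of -0.40 and -0.20. Of all genes 60.1% and 49.0% lay below 0, and of the 22 measured cytosolic cochaperones 21 and 17 did. An unadjusted p under 0.05 with a lower level was found for 7 of the 11, against the 15.1% of all genes. The J protein Dnaja3 fell by 0.86 (adjusted p = 0.0283), a call lost without UCP1 array 3 (0.154), control array 1 (0.109) or control array 2 (0.0708) and after quantile normalization (0.0593). The chaperonin Hspd1, also called Hsp60, read 35.6, 63.1 and 45.8 on the UCP1 arrays, against 88.5, 77.1 and 71.8 on the control arrays. The groups did not overlap, with a log2 difference of -0.75 ± 0.190 (SE; adjusted p = 0.0594). With 1 array left out, Hspd1 passed only without UCP1 array 2 (0.00561). Hspa9, the mitochondrial Hsp70, was at -0.40 ± 0.154 (SE; adjusted p = 0.2). Quantile normalization moved Hspa5 to -0.0685, Hsp90b1 to 0.45 and Hspa9 to -0.12.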

How the data were processed

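The values are spot intensities that the authors deposited on a linear scale, with array medians near 1. Scanner software, background correction, scaling step and the build behind the array's design were not given in the sources used here. A code of -9999 (116 to 125 probes per array) was treated as missing. Per the labels, the samples form 2 groups of 3 arrays, and their number limits the precision. Intensities were taken to log2, with the 80 to 159 values at or below 0 on each array set to its smallest positive value, and 36116 of 36227 probes with at least 2 values per group were tested with limma 3.58.1 in R 4.3.3 (lmFit, eBayes with an intensity trend, two-sided, Benjamini-Hochberg, threshold 0.05). The functions were tested on simulated data. Of all probes, 21615 had 1 gene symbol, 681 several and 13931 none. Of those with 1 symbol, 21487 matched RefSeq names of GRCm38.p6 by gene identifier and 0 changed. Promoter windows are RefSeq's.

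The heat shock genes and the 8 lists (102 genes, 94 measured by the probe with the highest mean log2 value) were chosen with earlier results of these data known. Named were every member, Ucp1, from each list the 3 called genes with the largest difference or, where none was called, the 2 with the smallest p, and Hspa5, Hsp90b1, Hspa9 and Hspd1. Alternatives were an offset of 0.171 (the 10th percentile of positive values) before log2, quantile normalization, the brighter probes (at or above the median level), no intensity trend, the replicate number as a block and each array left out.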

Additional observations from a re-analysis of the deposited data

How the results depend on the processing

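The 3 arrays per group and the dim probes of Hspa1a and Hspa8 limit what can be seen. Over all tested probes 1021 were called, 2239 among the brighter probes alone and 0 with limma without the intensity trend (4951 at an unadjusted p under 0.05), and 711 of the 1021 were also called after quantile normalization. Leaving out 1 array gave 159 (UCP1 array 3) to 1894 calls (UCP1 array 1 or 2), with 359, 392 and 617 without control arrays 1, 2 and 3. Of the heat shock probes 2 were called, 1 after quantile normalization, 1 with the replicate block, 0 without the trend (2 at an unadjusted p under 0.05), and 0 to 3 with 1 array left out. Over the 8 lists 7 genes were called, 17 among the brighter probes, 0 without the trend (27 at an unadjusted p under 0.05), and 1 to 17 with 1 array left out: 1 without UCP1 array 3 or control array 1, 2 and 4 without control arrays 2 and 3, and 17 and 16 without UCP1 arrays 1 and 2. Directions turned for Hsp90aa1 after quantile normalization (0.0432) and, with 1 array left out, for Hspa1a (-0.19 to 0.17), Hspa8 (-0.45 to 0.64) and Hsp90b1 (-0.0209 to 0.24), none of them called. The cause was not tested. The number of a UCP1 array was read from the digit that ends its title, which could also belong to a protein name. On that reading, deviations from group means correlated at -0.24, -0.00693 and 0.104 for the same numbers and at -0.364 to 0.35 for different numbers. The deviations of the 3 arrays of a group sum to 0, so these values cannot decide whether the arrays were paired. With the replicate block 776 probes were called over the array and 5 genes of the lists, and Dnajb1 (adjusted p = 0.0575), Fkbp5 (adjusted p = 0.073) and Bag4 (0.0558) lost their calls.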

Other observations

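Besides Hsph1, 4 genes of the 8 chaperone lists held a match to the 3-unit heat shock element in a RefSeq promoter window. That was 2 of 60 cytosolic list genes with a window, 0 of 15 of the endoplasmic reticulum and 2 of 9 mitochondrial ones. Of all 27025 genes with a window 0.662% held such a match. The differences of the 4 genes are given as values, chosen after they were seen. Dnajb6, a J protein that keeps aggregation-prone proteins soluble, averaged 56.3 in UCP1 and 55.5 in controls, a log2 difference of 0.01. Chordc1, a cochaperone of Hsp90, averaged 35.4 in UCP1 and 34.5 in controls, a log2 difference of 0.04. Hspd1 and Hspe1, which encode the mitochondrial chaperonin and its lid and are transcribed in opposite directions from a shared region, were at -0.75 and -0.18. Whether the windows of Hspd1 and Hspe1 hold the same match is not given here, so they may not be 2 separate matches. None of the 4 was called (limma). After quantile normalization the values were 0.20 for Dnajb6, 0.18 for Chordc1, -0.55 for Hspd1 and -0.05 for Hspe1.

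Serpinh1, the collagen chaperone Hsp47 of the endoplasmic reticulum, averaged 125 in UCP1 and 104 in controls. Its log2 difference was 0.26 (adjusted p = 0.467) in the deposited scaling and 0.53 after quantile normalization, where it was called higher (limma, adjusted p = 0.0141). It was the 1 gene of its list called there. Dnajb4, another J protein, averaged 63.8 in UCP1 and 57.1 in controls, at 0.16 (adjusted p = 0.612) in the deposited scaling and 0.37 after quantile normalization (adjusted p = 0.0341).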
